A study of Mus musculus with 24 samples.

Results

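The genes described here are 8 receptors through which growth factors act on blood progenitors and myeloid cells: Kit, Flt3, Csf1r, Csf3r, Csf2ra, Csf2rb, Csf2rb2 and Il3ra. They were taken by gene symbol from the deposited table of expression values and are 8 of its 23361 rows. All 8 were among the 11599 rows tested, and none was listed at 0.001, a value that recurs in the table in place of 0, in any library.

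RNA was sequenced from spleen leukaemia cells of mice that carried both a constitutively active NRAS (NRASG12V) and the Mll-AF9 fusion, in the genetic background (FVB/n X C57/BL/6J) F1. All 24 libraries share this genotype and background, and no control group of normal cells was included. Unsorted cells gave 5 libraries, and cells sorted as MacHigh another 5. Cells low for Mac were split by Kit and Sca1 into MacLowKit-Sca1- (5 libraries), MacLowKit+Sca1- (5 libraries) and MacLowKit+Sca1+ (4 libraries), which are named below by their Kit and Sca1 gate alone. No treatment, age or promoter of the transgene is given in the sources used here. The labels number the libraries of a group as replicates without saying that each came from its own mouse, so p-values speak of the spread between these libraries alone, and that spread may be technical.

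Kit, Flt3 and Csf1r are receptor tyrosine kinases, which dimerise and phosphorylate themselves when stem cell factor, Flt3 ligand or M-CSF binds. Csf3r, the G-CSF receptor, and the receptors of GM-CSF and IL-3 have no kinase of their own and signal through JAK kinases and STAT factors. The GM-CSF and IL-3 receptors each pair an alpha chain (Csf2ra or Il3ra) with a shared beta chain (Csf2rb), and mice have a further beta chain, Csf2rb2, that works with the IL-3 alpha chain. Kit and Flt3 are known from early blood progenitors, Flt3 also from dendritic cells and their precursors, Csf1r from monocytes and macrophages, and Csf3r from neutrophils and their precursors.

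The beta chain genes Csf2rb and Csf2rb2 are neighbours on chromosome 15 (78325752 to 78353847 and 78282507 to 78305721 in GRCm38) and are near copies of each other. Their coding sequences, 2688 and 2634 bases in the GENCODE annotation of that build, had the same base at 95.2% of 2628 aligned positions. The first 150 coding bases are shown because a read from such a stretch can fit both genes, with the 6 positions that differ in capitals.
Csf2rb: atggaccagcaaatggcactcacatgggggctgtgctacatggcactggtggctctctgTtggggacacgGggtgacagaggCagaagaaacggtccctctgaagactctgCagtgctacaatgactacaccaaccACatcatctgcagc
Csf2rb2: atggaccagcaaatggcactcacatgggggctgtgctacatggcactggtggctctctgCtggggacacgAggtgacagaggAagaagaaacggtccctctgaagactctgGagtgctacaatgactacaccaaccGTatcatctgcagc
Of all stretches of 50 coding bases in Csf2rb, 26% occurred without a change in Csf2rb2, and of stretches of 100 bases 11%. How reads that fit both were shared out is not given in the sources used here, so the split between the 2 beta chains is uncertain.

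The 250 bases before the start site of Flt3 and of Csf2rb2 (RefSeq, GRCm38.p6) held no annotated exon. They are shown as the upstream windows of the member that differed most between the Kit-positive groups and of one of the beta chains. Motif matches are in capitals, and Flt3 had none.
Flt3, chr5:147400490-147400739, minus strand: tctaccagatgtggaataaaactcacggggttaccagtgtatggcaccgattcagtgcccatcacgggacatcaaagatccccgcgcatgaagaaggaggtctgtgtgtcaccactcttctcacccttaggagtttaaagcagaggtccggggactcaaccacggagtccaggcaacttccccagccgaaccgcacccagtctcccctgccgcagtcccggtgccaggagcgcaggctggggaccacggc
Csf2rb2, chr15:78305722-78305971, minus strand: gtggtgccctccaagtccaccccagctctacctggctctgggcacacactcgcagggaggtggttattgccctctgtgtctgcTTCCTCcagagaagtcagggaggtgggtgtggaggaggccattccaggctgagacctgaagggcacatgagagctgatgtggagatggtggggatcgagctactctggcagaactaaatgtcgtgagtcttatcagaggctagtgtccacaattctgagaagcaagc
Both strands were searched for 4 short motifs of blood cell factors. GAGGAA is the core bound by PU.1, TGTGGT that bound by RUNX factors and TTNCNNAA a pattern of C/EBP factors. The last motif searched was AGATAA, which erythroid and mast cell factors bind. The match in Csf2rb2 is a GAGGAA on the other strand, 167 bases before the start site. Kit and Csf3r held 1 GAGGAA each, Il3ra 1 TTNCNNAA, and Csf2ra 2 GAGGAA and 1 TTNCNNAA. Of 32851 such windows of the genome, 23.3% held a GAGGAA, 14% a TGTGGT, 36.8% a TTNCNNAA and 9.99% an AGATAA. The windows of Csf1r and Csf2rb were not analysed here.

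Values are FPKM, read fragments scaled by gene length and by library, so that levels can be set side by side between genes. Differences are between means of log2(FPKM + 1), with their standard error (SE), from limma fitted to all rows tested, and a difference is called at a Benjamini-Hochberg adjusted p under 0.05. The added 1 understates the change of genes at low levels. The absolute depth of the libraries is unknown. Between sorted groups 37 of the 48 member differences were called, those of the sort marker Kit included, and in 28 the values of the groups did not overlap. Such calls were common in these groups. Between any pair of sorted groups 45.2% to 62.8% of all rows tested were called, and 28.8% to 45% did not overlap. Each count of members is therefore given beside the share of all rows. All groups are bulk populations, in which fewer cells of a type and less RNA per cell cannot be told apart.

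**Figure D1:**
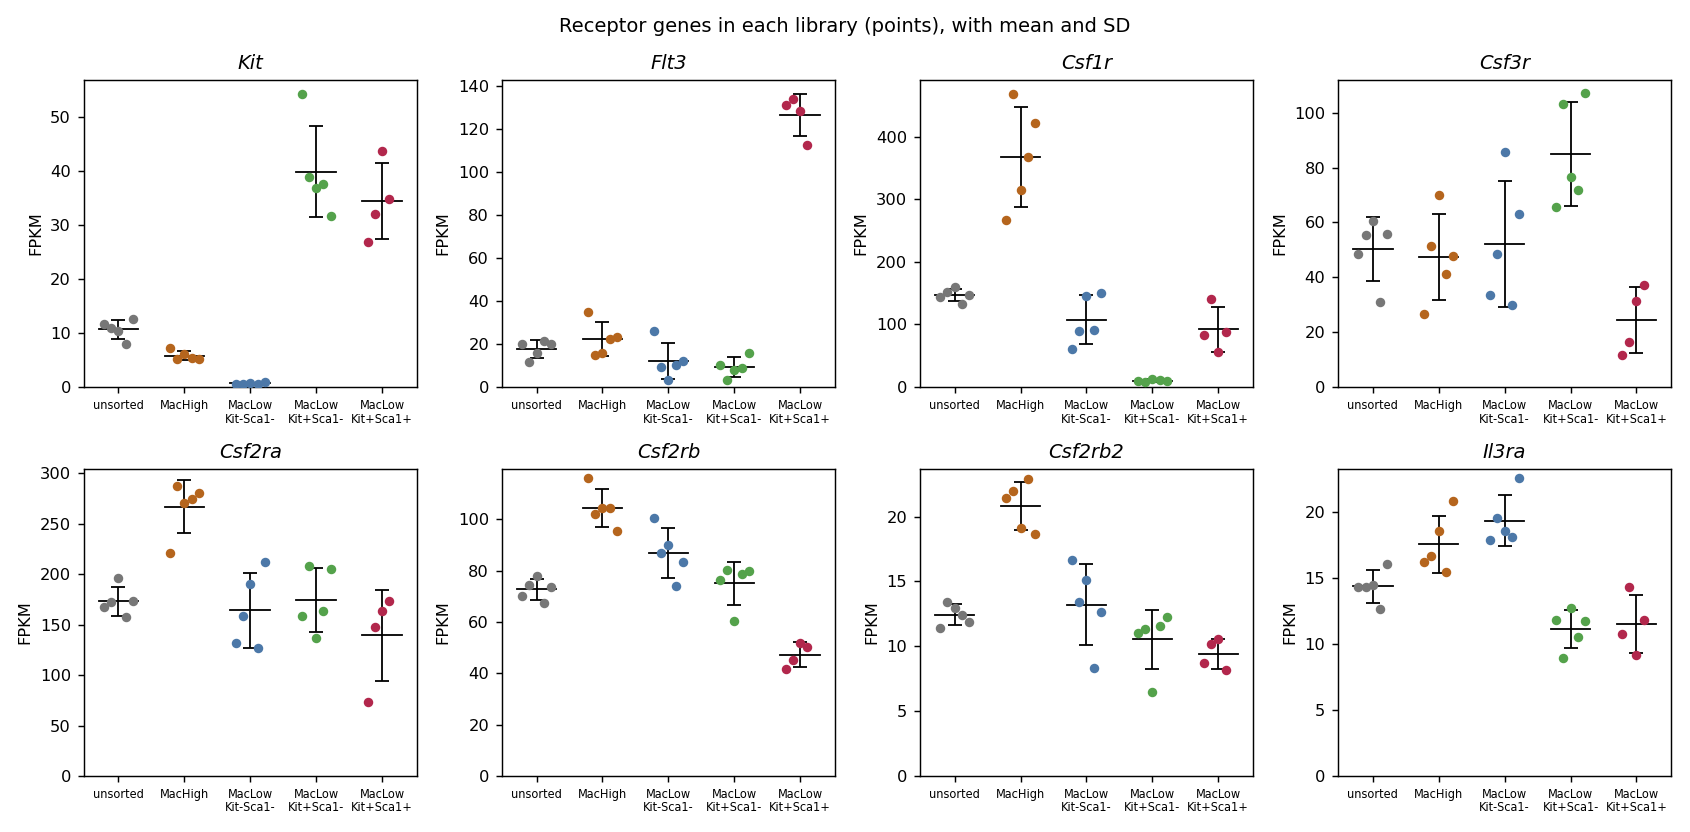
FPKM of the 8 receptor genes in each library (points) by group, with the group mean and SD (lines). Flt3 lies at 113 to 134 in the 4 Kit+Sca1+ libraries and at 34.8 or less in all others, and Csf1r at 8.34 to 13.6 in the Kit+Sca1- libraries, below all others.

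Kit, the receptor of stem cell factor, was a sort marker, so its contrast across the Kit gate checks the labels and is no result. It was at 31.7 to 54.1 FPKM in the Kit+Sca1- libraries, 26.8 to 43.6 in Kit+Sca1+ and 0.487 to 0.895 in Kit-Sca1-, and every library thus lay on its side of the gate. MacHigh cells, which were not gated on Kit, had 7.17, 5.23, 6.03, 5.29 and 5.22 FPKM in replicates 1 to 5, between the Kit-negative and the Kit-positive groups. Unsorted cells had 11.7, 10.9, 10.4, 7.98 and 12.6 FPKM. All 5 unsorted libraries lay above all 5 MacHigh libraries (log2 difference of MacHigh against unsorted -0.78 ± 0.14, limma adjusted p = 0.000171).

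Kit+Sca1+ and Kit+Sca1- cells, both gated as Kit-positive, overlapped in their Kit levels. The difference was -0.21 ± 0.15 (adjusted p = 0.242) and went both ways within sample name prefixes, a part of the sample names that recurs across groups and whose meaning is not given. Kit was higher in Kit+Sca1+ for 2 of the 3 prefixes with both groups and lower for 1. With every library rescaled to a common FPKM sum, Kit passed as lower in Kit+Sca1+ (-0.42, adjusted p = 0.0206).

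Flt3, the receptor of Flt3 ligand, separated the 2 Kit-positive groups. It was at 131, 134, 128 and 113 FPKM in Kit+Sca1+ replicates 1 to 4. In Kit+Sca1- replicates 1 to 5 it was at 10.3, 3.10, 8.15, 8.81 and 16.1 FPKM. The 2 groups did not overlap: every Kit+Sca1+ library was far above the highest Kit+Sca1- library. The mean level was 13.6-fold higher in Kit+Sca1+ (log2 difference 3.77 ± 0.39, limma adjusted p = 3.39e-08), and within the 3 shared prefixes the differences ran from 2.73 to 4.98.

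MacHigh cells had 34.8, 14.8, 16.0, 22.2 and 23.3 FPKM of Flt3 in replicates 1 to 5, and Kit-Sca1- cells 26.1, 9.48, 3.11, 10.5 and 12.2. Unsorted cells had 20, 11.5, 15.7, 21.5 and 19.9 FPKM. These 3 groups and Kit+Sca1- overlapped one another, and all lay below Kit+Sca1+. Kit+Sca1+ was 10.3-fold higher than Kit-Sca1- (3.51 ± 0.39, adjusted p = 1.61e-07) and 5.69-fold higher than MacHigh. The order of the mean levels was Kit+Sca1+, MacHigh, unsorted, Kit-Sca1- and Kit+Sca1-, and below the first of them no neighbours differed beyond the test (adjusted p = 0.57, 0.203 and 0.582). With the prefix as a block, Flt3 was lower in Kit-Sca1- than in unsorted cells (-0.80, adjusted p = 0.039).

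Flt3 was lower in Kit+Sca1- than in MacHigh (-1.25 ± 0.37, adjusted p = 0.00517), with overlap at the edges of the 2 groups. Against MacHigh it was also lower in Kit-Sca1- (-0.99 ± 0.37, adjusted p = 0.029), a call that was lost without the filter on low values (adjusted p = 0.0504) or with only those 2 groups in the fit (0.067). It was lost too without MacHigh replicate 1 or 5 or Kit-Sca1- replicate 2 or 3, with an adjusted p of up to 0.109. Flt3 varied little within Kit+Sca1+ (coefficient of variation 7.62%) and more within Kit-Sca1- (68.9%) and Kit+Sca1- (50.2%). In 4 of the 5 groups with a library of the prefix 26, that library had the lowest Flt3 of its group, at 3.11 FPKM in Kit-Sca1- and 3.10 in Kit+Sca1-.

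Markers of dendritic cells, a cell type that carries Flt3, were high in Kit+Sca1+ as Flt3 was, though their sums there overlapped those of MacHigh. The summed FPKM of the 12 dendritic cell markers was 2837 to 5547 in Kit+Sca1+ libraries, 1570 to 3378 in MacHigh, 956 to 1352 in unsorted, 196 to 509 in Kit-Sca1- and 159 to 845 in Kit+Sca1-. None of the 12 was listed at 0.001 in a whole group. In Kit+Sca1+ against Kit+Sca1-, 10 of the 11 markers tested rose and none fell (26.8% of all rows rose and 28.5% fell). Against MacHigh 8 rose and 1 fell (23.6% of all rows rose and 22.4% fell). Xcr1 and Clec9a, receptors of the cross-presenting type of dendritic cell, were at 105 and 122 FPKM in Kit+Sca1+ against 12.2 and 17.8 in MacHigh, and the MHC class II gene H2-Ab1 gave most of each sum. In Kit+Sca1+ replicates 1 to 4 the sums were 2837, 5098, 5547 and 5472, beside 131, 134, 128 and 113 FPKM of Flt3. In MacHigh replicates 1 to 5 they were 1570, 2911, 1636, 2023 and 3378, beside 34.8, 14.8, 16.0, 22.2 and 23.3 FPKM of Flt3. The part of these cells in the Flt3 levels was not tested.

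**Figure D2:**
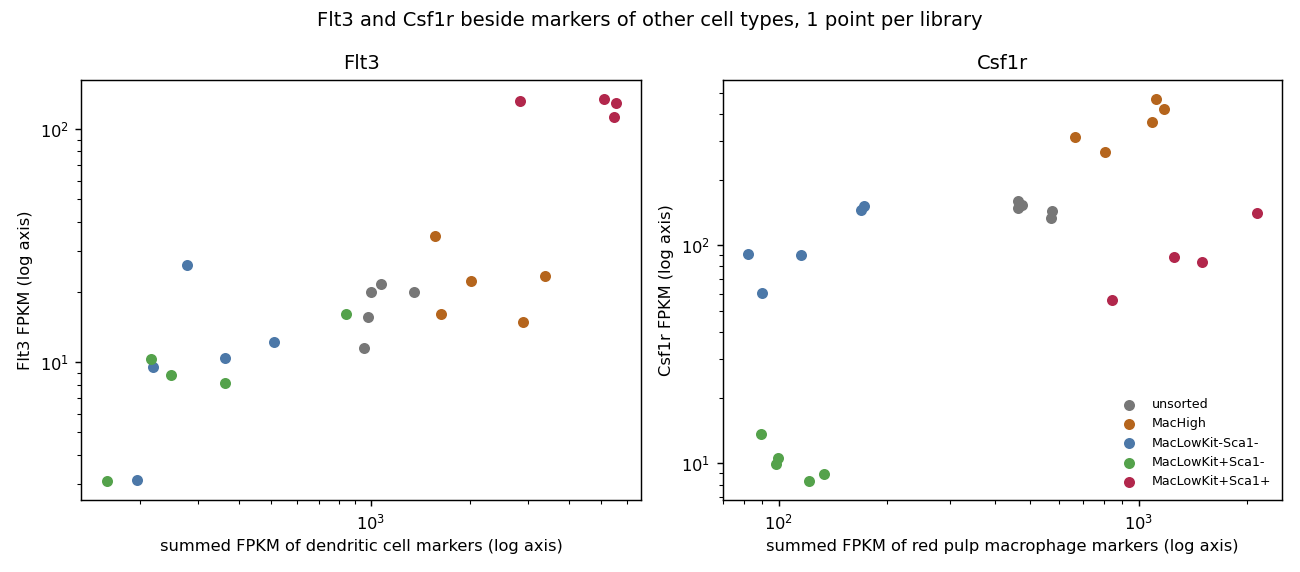
Each point is 1 library. Left, FPKM of Flt3 against the summed FPKM of 12 dendritic cell markers; right, FPKM of Csf1r against the summed FPKM of 13 red pulp macrophage markers, all on log axes. Kit+Sca1+ libraries are high on both marker sums, and the macrophage marker sums of Kit-Sca1- and Kit+Sca1- libraries overlap. The part of these cell types in the Flt3 and Csf1r levels was not tested.

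Csf1r, the M-CSF receptor of monocytes and macrophages, was highest in MacHigh, at 267, 468, 314, 367 and 422 FPKM in replicates 1 to 5. In Kit+Sca1- it was at 9.93, 8.34, 13.6, 10.6 and 8.98 FPKM. The ranges of these 2 groups lay far apart, with the highest Kit+Sca1- library below the lowest of every other group. The difference of Kit+Sca1- against MacHigh was -5.02 ± 0.23 (limma adjusted p = 2.84e-14), and it was lower for all 5 shared prefixes, by -5.65 to -4.43.

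The 2 other sorted groups lay between these extremes. Kit-Sca1- had 60.6, 90.3, 146, 91.1 and 151 FPKM of Csf1r, and Kit+Sca1+ had 83.6, 140, 56.0 and 88.2. These groups overlapped, and their difference was not called (-0.22 ± 0.24, adjusted p = 0.48). Both were below MacHigh with no overlap (-1.81 ± 0.23 and -2.03 ± 0.24) and above Kit+Sca1-. Between the Kit-positive groups, Csf1r was 8.94-fold higher in Kit+Sca1+ (2.98 ± 0.24, adjusted p = 6.57e-10). Kit+Sca1+ thus had more Csf1r than the other Kit-positive group and less than MacHigh. Unsorted cells were at 133 to 159 FPKM, below all MacHigh libraries and overlapping Kit-Sca1- and Kit+Sca1+.

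Red pulp macrophages of the spleen carry Csf1r, and the summed FPKM of 13 of their markers was 842 to 2133 in Kit+Sca1+, 664 to 1180 in MacHigh, 461 to 575 in unsorted, 82.3 to 173 in Kit-Sca1- and 89.2 to 134 in Kit+Sca1-. All 13 rose in Kit+Sca1+ against Kit+Sca1- (26.8% of all rows rose), C1qa, a complement component of macrophages, from 1.32 to 207 FPKM. Against MacHigh 8 rose and 2 fell in Kit+Sca1+ (23.6% of all rows rose and 22.4% fell), where Csf1r was lower. None was listed at 0.001 in a whole group. Between Kit-Sca1- and Kit+Sca1- the marker sums overlapped, with 5 of the 13 markers lower and 2 higher in Kit+Sca1- (50.2% of all rows were called). Csf1r was lower in Kit+Sca1- with no overlap (-3.20 ± 0.23, limma adjusted p = 1.53e-10). The part of these cells in the Csf1r levels was not tested.

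Csf3r, the G-CSF receptor of the neutrophil lineage, had the opposite order in the Kit-positive groups. Its mean was highest in Kit+Sca1-, at 65.7, 103, 76.4, 71.8 and 107 FPKM in replicates 1 to 5. It was lowest in Kit+Sca1+, at 11.8, 16.5, 31.5 and 37.2 FPKM. Every Kit+Sca1- library was above every Kit+Sca1+ library (Kit+Sca1+ against Kit+Sca1- -1.87 ± 0.32, limma adjusted p = 3.95e-05), and within the 3 shared prefixes the differences were -2.38 to -1.50.

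MacHigh had 26.7, 51.4, 70.0, 41.2 and 47.9 FPKM of Csf3r, and Kit-Sca1- 33.7, 48.5, 85.5, 29.9 and 63.0. These groups and the unsorted libraries (30.9 to 60.5) overlapped throughout, and no pair of the 3 was called (adjusted p = 0.822, 0.798 and 0.977). Csf3r was higher in Kit+Sca1- than in MacHigh (0.86 ± 0.31, adjusted p = 0.0178, and 0.063 without MacHigh replicate 1) and higher than in Kit-Sca1- (0.77 ± 0.31, adjusted p = 0.0404). The latter call was lost without the filter on low values (adjusted p = 0.0667), with library weights (0.0508), and without Kit-Sca1- replicate 1, 2 or 4 or Kit+Sca1- replicate 2 or 5 (up to 0.123). Csf3r was lower in Kit+Sca1+ than in Kit-Sca1- (-1.10 ± 0.32, adjusted p = 0.00818) and than in MacHigh (-1.01 ± 0.32, adjusted p = 0.0141), though not called against MacHigh without Kit+Sca1+ replicate 1 (0.0802) or 2 (0.0525).

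Neutrophil markers were present in every group. Their summed FPKM was 23962 to 81206 in MacHigh, 26424 to 54897 in unsorted, 21742 to 59346 in Kit-Sca1-, 13036 to 42419 in Kit+Sca1+ and 5018 to 31976 in Kit+Sca1-, where S100a8, S100a9 and Ngp were listed at 0.001 in all libraries, as was S100a9 in unsorted cells. These genes were among the most abundant in the other groups, so that 0.001 may be a failed estimate there and those 2 groups' sums cannot be set beside the rest. Of the 9 markers measured, 7 fell and none rose in Kit+Sca1+ against MacHigh (22.4% of all rows fell and 23.6% rose). All 6 with an estimate fell in Kit+Sca1+ against Kit+Sca1- (28.5% of all rows fell). The mean FPKM of Camp, a granule protein, was 1917 for Kit+Sca1+ against 13681 for Kit+Sca1-. Their part in the Csf3r levels was not tested.

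Csf2ra, the alpha chain that binds GM-CSF, was expressed at high levels in all groups. It was at 221, 287, 270.5, 275 and 280.2 FPKM in MacHigh replicates 1 to 5, and no library of another group reached that range. Kit+Sca1- had 137 to 208 FPKM, Kit-Sca1- 127 to 212, unsorted 157 to 196 and Kit+Sca1+ 73.0, 147, 163 and 173. Below MacHigh the 4 groups overlapped. Csf2ra was lower than in MacHigh in Kit+Sca1+ (-1.0 ± 0.20, limma adjusted p = 0.000234), Kit-Sca1- (-0.72 ± 0.19, adjusted p = 0.00254) and Kit+Sca1- (-0.62 ± 0.19, adjusted p = 0.00562). The last of these was not called with the rescaled libraries (-0.29, adjusted p = 0.123).

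Among the 3 MacLow groups no difference in Csf2ra was called. For Kit+Sca1+ against Kit+Sca1- it was -0.38 ± 0.20 (adjusted p = 0.108). It passed with the prefix as a block (-0.43, adjusted p = 0.0206), with the rescaled libraries (-0.60, 0.00613) and without Kit+Sca1+ replicate 4 (-0.51, 0.0448), and was -0.096 without Kit+Sca1+ replicate 1, the library at 73.0 FPKM.

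Il3ra, the alpha chain that binds IL-3, was lower in the 2 Kit-positive groups than in Kit-Sca1- and in MacHigh, which was not gated on Kit. Both Kit-positive groups were low, with 11.8, 8.98, 12.7, 10.5 and 11.8 FPKM in Kit+Sca1- and 10.8, 14.4, 9.15 and 11.8 in Kit+Sca1+. Kit-Sca1- had 17.9, 19.6, 18.6, 18.1 and 22.6 FPKM and MacHigh 16.2, 16.7, 18.6, 15.5 and 20.9. Neither Kit-positive group overlapped either of the others. Il3ra was lower in Kit+Sca1- than in Kit-Sca1- (-0.75 ± 0.11, limma adjusted p = 4.77e-06) and than in MacHigh (-0.61 ± 0.11, adjusted p = 3.15e-05). Kit+Sca1+ differed from the same 2 groups by -0.71 ± 0.11 and -0.58 ± 0.11. Between the 2 Kit-positive groups the difference was 0.035 ± 0.11 (adjusted p = 0.816) and turned its sign with the scaling, and Kit-Sca1- against MacHigh was not called either (0.14 ± 0.11, adjusted p = 0.301).

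Basophils and mast cells carry the IL-3 receptor, and mast cells carry Kit. Their 10 markers summed to 127 to 204 FPKM in Kit-Sca1-, 69.1 to 120 in Kit+Sca1-, 81.1 to 95.3 in unsorted, 58.3 to 80.8 in MacHigh and 34.5 to 51.8 in Kit+Sca1+. The Fc receptor gene Fcer1a and the mast cell genes Tpsb2 and Mrgprb1 had the value 0.001 throughout Kit+Sca1-, which may be failed estimates too, as had Tpsb2 and Mrgprb1 in Kit-Sca1- and Mrgprb1 in MacHigh. Against Kit-Sca1-, 7 of 7 markers tested fell in Kit+Sca1+ and 6 of 7 in Kit+Sca1-, beside the fall of Il3ra in both. Of all rows 23.3% and 26.3% fell in these comparisons. In Kit-Sca1- against MacHigh 5 of the 7 were higher and none lower (24.5% of all rows were higher and 26.2% lower), while Il3ra was not called. The part of these cells in the Il3ra levels was not tested.

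Csf2rb, the beta chain shared by the GM-CSF, IL-3 and IL-5 receptors, was the only member called in all 6 comparisons of sorted groups. MacHigh had 116, 102, 105, 104 and 95.6 FPKM in replicates 1 to 5, and Kit+Sca1+ 41.7, 45.3, 51.9 and 50.3. Every Kit+Sca1+ library lay below every library of the other 4 groups. The difference of Kit+Sca1+ against MacHigh was -1.13 ± 0.09 (limma adjusted p = 1.54e-09), against Kit-Sca1- -0.86 ± 0.09 (8.49e-08) and against Kit+Sca1- -0.65 ± 0.09 (3.00e-06).

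Kit-Sca1- had 101, 86.9, 90.0, 73.9 and 83.5 FPKM of Csf2rb, and Kit+Sca1- 76.2, 80.1, 60.3, 78.7 and 79.9. Kit+Sca1- was below MacHigh with no overlap (-0.48 ± 0.09, adjusted p = 5.43e-05), while Kit-Sca1- overlapped MacHigh (-0.27 ± 0.09, adjusted p = 0.014). Neither of these 2 calls held with the rescaled libraries (adjusted p = 0.114 and 0.107), and the latter was also lost without Kit-Sca1- replicate 4 (0.0545). The call of Kit+Sca1- against Kit-Sca1- rests on a small difference (-0.21 ± 0.09, adjusted p = 0.0488), which was 0.018 with the rescaled libraries. The call was lost without the filter (0.0596), with quantile normalization (0.107), with a block on the title number (0.0628) and with only those 2 groups in the fit (0.131). It was also lost without Kit-Sca1- replicate 1, 2, 3 or 5 or Kit+Sca1- replicate 1 or 3 (adjusted p up to 0.164).

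Csf2rb2, the beta chain of the mouse IL-3 receptor, was lower in FPKM than Csf2rb in every group. MacHigh had 21.4, 22, 19.1, 22.9 and 18.6 FPKM, and Kit+Sca1+ 8.69, 10.2, 10.5 and 8.19. Kit-Sca1- had 8.30 to 16.6 FPKM, Kit+Sca1- 6.51 to 12.3 and unsorted 11.4 to 13.4. MacHigh lay above all libraries of the other groups. Against MacHigh, Csf2rb2 was lower in Kit+Sca1+ (-1.07 ± 0.16, limma adjusted p = 7.61e-06), Kit+Sca1- (-0.94 ± 0.15, 8.06e-06) and Kit-Sca1- (-0.65 ± 0.15, 0.000949).

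Among the MacLow groups only Kit+Sca1+ against Kit-Sca1- was called for Csf2rb2 (-0.42 ± 0.16, adjusted p = 0.0311), with overlap. That call was lost with only those 2 groups in the fit (0.0758) and without Kit-Sca1- replicate 1, 2 or 3 or Kit+Sca1+ replicate 1 or 4 (up to 0.0933). Kit+Sca1- against Kit-Sca1- (-0.30 ± 0.15, adjusted p = 0.0995) passed with the prefix as a block (-0.31, 0.0418) and without Kit-Sca1- replicate 4 (-0.44, 0.00785). Since reads of the 2 beta chains can be confused, as the sequences above show, a difference in one may hold reads of the other.

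**Figure D3:**
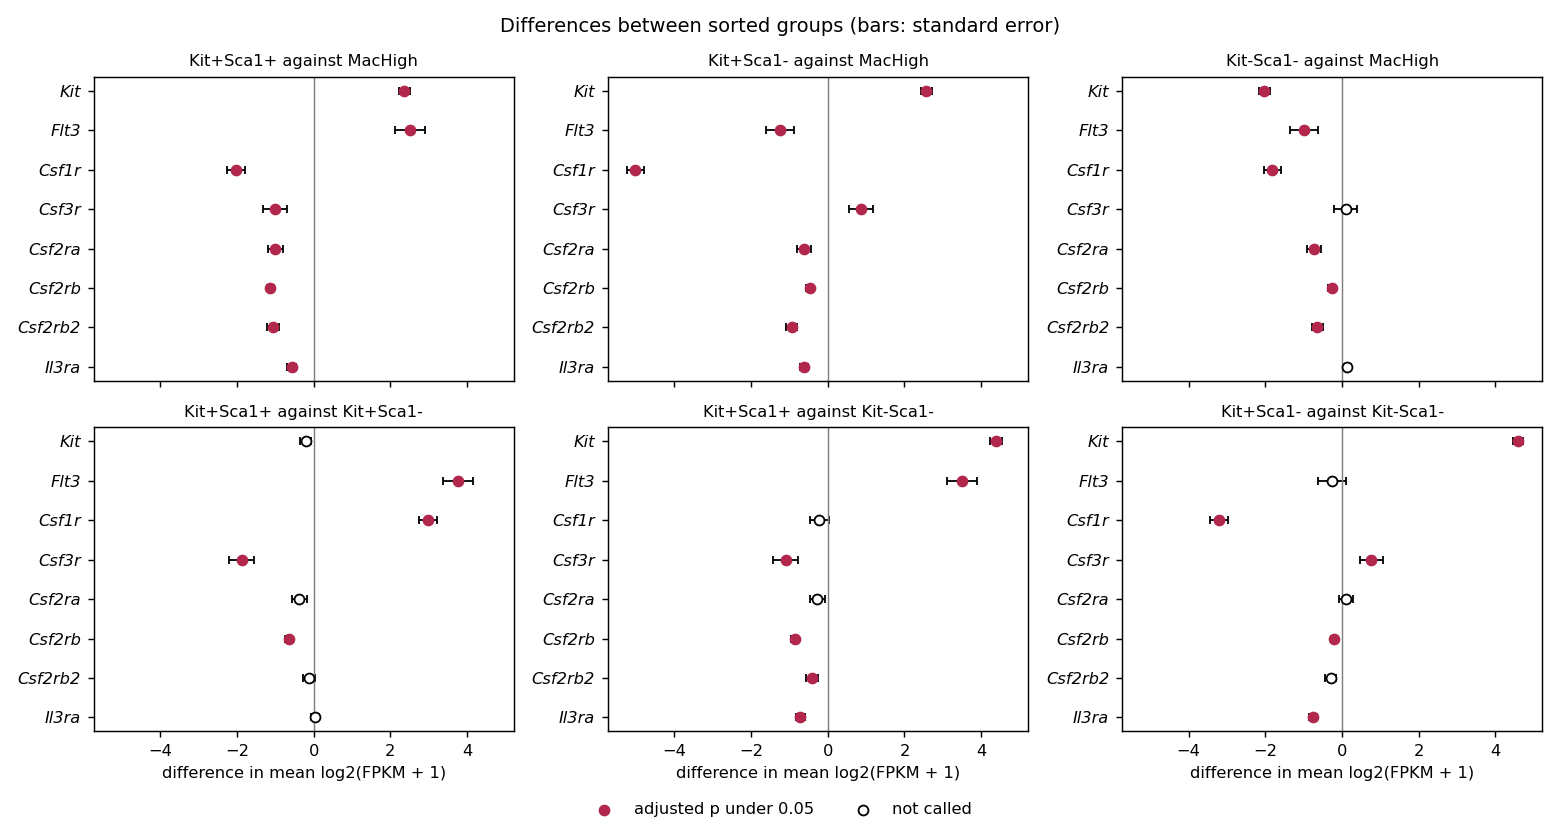
Differences of mean log2(FPKM + 1) between sorted groups for the 8 receptor genes (points) with their SE (bars), filled where the adjusted p was under 0.05. Flt3 and Csf1r are higher and Csf3r and Csf2rb lower in Kit+Sca1+ than in Kit+Sca1-, and Csf1r is lower by 5.02 in Kit+Sca1- than in MacHigh.

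Counted over the members, here and below with the sort marker Kit included, 6 to 8 were called between MacHigh and a MacLow group. The MacLow groups were gated on Kit, and MacHigh and unsorted cells were not. Where a MacLow group is set against either, the gate sets Kit in the counts and medians, so it is no result there. In Kit+Sca1+ against MacHigh all 8 members were called, where 46% of all rows tested were (23.6% higher and 22.4% lower), and 7 did not overlap, where 37.5% of all rows did not. Kit and Flt3 were higher and the other 6 lower, and the median member difference was -1.01 against 0.027 over all rows. In Kit+Sca1- against MacHigh all 8 were again called (62.8% of all rows, 32.5% higher and 30.3% lower) and 6 did not overlap (45% of all rows). There Kit and Csf3r were higher, and Flt3, Csf1r and the 4 GM-CSF and IL-3 receptor genes were lower (median -0.62 against 0.032). In Kit-Sca1- against MacHigh 6 members were lower and none higher (50.8% of all rows were called, 24.5% higher and 26.2% lower), and 4 did not overlap (35.7% of all rows), with a median of -0.68 against -0.023.

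Among the MacLow groups 4 to 6 members were called in a comparison. In Kit+Sca1+ against Kit+Sca1-, 4 members were called (55.2% of all rows, 26.8% higher and 28.5% lower), Flt3 and Csf1r higher and Csf3r and Csf2rb lower, and none of these 4 overlapped (39.4% of all rows). In Kit+Sca1+ against Kit-Sca1- there were 6 calls (45.2% of all rows, 21.8% higher and 23.3% lower) and 4 without overlap (33.8% of all rows). Kit and Flt3 were higher, and Csf3r, Csf2rb, Csf2rb2 and Il3ra lower. In Kit+Sca1- against Kit-Sca1- there were 5 calls (50.2% of all rows, 24% higher and 26.3% lower), and 3 members did not overlap (28.8% of all rows). Kit and Csf3r were higher and Csf1r, Csf2rb and Il3ra lower. Without Kit-Sca1- replicate 1 or 2 only 3 members were called there. In both comparisons with Kit-Sca1-, Kit is among the calls and the members without overlap because the gate sets it, so it is no result.

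Unsorted cells lay between the sorted groups for most members. Against unsorted, MacHigh had 5 calls (39.4% of all rows, 21.3% higher and 18.2% lower), all without overlap (31.7% of all rows). Csf1r (1.29 ± 0.23), Csf2rb2 (0.70 ± 0.15), Csf2ra (0.62 ± 0.19) and Csf2rb (0.52 ± 0.09) were higher and Kit was lower. The call of Csf2ra was lost with the rescaled libraries (adjusted p = 0.0505) and with quantile normalization (0.0548). Il3ra was at the edge of the threshold (0.27 ± 0.11, limma adjusted p = 0.0501) and passed with the prefix (0.30, 0.00519) or the title number (0.0339) as a block, with library weights (0.0357), with only those 2 groups in the fit (0.031), and without unsorted replicate 5 or MacHigh replicate 1 or 4 (0.0395, 0.0483 and 0.0373).

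Against unsorted, Kit-Sca1- had the fewest rows called of all groups. Of the members only Kit, the sort marker, was lower and Il3ra higher (0.40 ± 0.11, limma adjusted p = 0.0126, and 0.14 with the rescaled libraries), which makes 2 calls where 14.6% of all rows were called (5.67% higher and 8.91% lower), and both were without overlap (13.3% of all rows). Without Kit-Sca1- replicate 4 Csf2rb passed as higher (0.31, adjusted p = 0.0266), and without Kit-Sca1- replicate 5 Csf1r passed as lower (-0.67, 0.049). With library weights Csf2rb (0.24, 0.00531), Csf1r (-0.62, 0.00977) and Flt3 (-0.71, 0.0447) passed as well, which made 5 calls. With these weights 4121 of the 11599 rows tested were called, against 1692 in the main fit. Kit+Sca1+ against unsorted had 6 calls (33% of all rows, 17.2% higher and 15.7% lower), with Kit and Flt3 higher and Csf1r, Csf3r, Csf2rb and Il3ra lower. The groups did not overlap for 4 members (30.2% of all rows). One of these was Csf2rb2, which was not called (-0.37 ± 0.16, adjusted p = 0.0741) and passed in 5 of the 8 alternatives: the prefix as a block (-0.45, 0.0123), rescaled libraries (0.0235), quantile normalization (0.0365), library weights (0.0258) and only those 2 groups in the fit (0.00995).

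In Kit+Sca1+ against unsorted, Il3ra (-0.31 ± 0.11, limma adjusted p = 0.0401) lost its call without any library of either group except unsorted replicate 4 and Kit+Sca1+ replicate 2, with a block on the title number (0.0574) and with only those 2 groups in the fit (0.0691). Csf1r lost it without Kit+Sca1+ replicate 3 (0.0986) and Csf3r without Kit+Sca1+ replicate 1 (0.0575). Kit+Sca1- against unsorted had 5 calls (47.4% of all rows, 23.6% higher and 23.8% lower), with Kit and Csf3r higher and Flt3, Csf1r and Il3ra lower, and 3 members without overlap (32.3% of all rows). Of these calls Csf3r (0.75 ± 0.31, adjusted p = 0.0471) held in 2 and Flt3 (-0.97 ± 0.37, adjusted p = 0.034) in 5 of the 10 fits with a library left out. Both were lost together without unsorted replicate 1, 4 or 5 or Kit+Sca1- replicate 2 or 3, which left 3 members called. Both were also lost without the filter (0.0712 for Csf3r and 0.0532 for Flt3), and Csf3r with quantile normalization (0.0631) and library weights (0.0983). Il3ra (-0.34 ± 0.11, adjusted p = 0.011) was lost with the rescaled libraries (-0.22, 0.182).

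Ratios of 2 members within a library do not depend on how the library was scaled. Over 3 ratios and the 6 pairs of sorted groups, 16 differences were tested with exact two-sided permutation tests, in which no p below 0.00794 can arise with 4 or 5 libraries a group. The 2 contrasts of Flt3 to Kit between Kit-Sca1- and the Kit-positive groups were left untested because the gate sets Kit there. The ratio of Flt3 to Kit was 3.71 in the median Kit+Sca1+ library (2.94 to 4.90) and 4.2 in MacHigh (2.66 to 4.85), which overlapped (log2 difference 0.018). In Kit+Sca1- it was 0.221 (0.0800 to 0.507), so that Kit exceeded Flt3 in every library of that group and in no library of the other groups. Contrasts of this ratio with MacHigh are among the 16 tests over which p was adjusted. They are given with no p, since MacHigh was not gated on Kit and the MacLow groups were. Kit+Sca1- differed from MacHigh by -4.14 on the log2 scale, with Kit alone higher by 2.57. Between the Kit-positive groups, both gated alike on Kit, the ratio was higher in Kit+Sca1+ by 4.16 (exact permutation p = 0.00794, adjusted 0.0212).

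The ratio of Csf1r to Csf3r, a macrophage and a neutrophil lineage receptor, was lowest in Kit+Sca1-. It was 0.148 in the median Kit+Sca1- library (0.0809 to 0.179), 8.89 in MacHigh (4.49 to 10), 4.71 in Kit+Sca1+ (1.78 to 8.49), 2.74 in unsorted (2.63 to 4.32) and 1.86 in Kit-Sca1- (1.70 to 3.05). Csf3r exceeded Csf1r in all 5 Kit+Sca1- libraries and in no other library. On the log2 scale Kit+Sca1- differed from MacHigh by -6.03 and from Kit-Sca1- by -4.11, Kit+Sca1+ from Kit+Sca1- by 5.03, and Kit-Sca1- from MacHigh by -1.92 (exact p = 0.00794, adjusted 0.0212 for each). Kit+Sca1+ against MacHigh (-1.0, adjusted p = 0.173) and against Kit-Sca1- (0.92, adjusted p = 0.233) did not pass the permutation test. Within Kit+Sca1+ the ratio was high in replicates 1 and 2 and low in replicates 3 and 4.

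The ratio of the GM-CSF receptor's alpha chain to the beta chain, Csf2ra to Csf2rb, ran from 1.31 in a Kit-Sca1- library to 3.43 in a Kit+Sca1+ library. It was 3.20 in the median Kit+Sca1+ library, 2.63 in MacHigh, 2.35 in unsorted, 2.26 in Kit+Sca1- and 1.82 in Kit-Sca1-. All groups overlapped, and none of the 6 differences passed the exact permutation test after adjustment (lowest adjusted p = 0.0952, for Kit-Sca1- against MacHigh at -0.46).

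**Figure D4:**
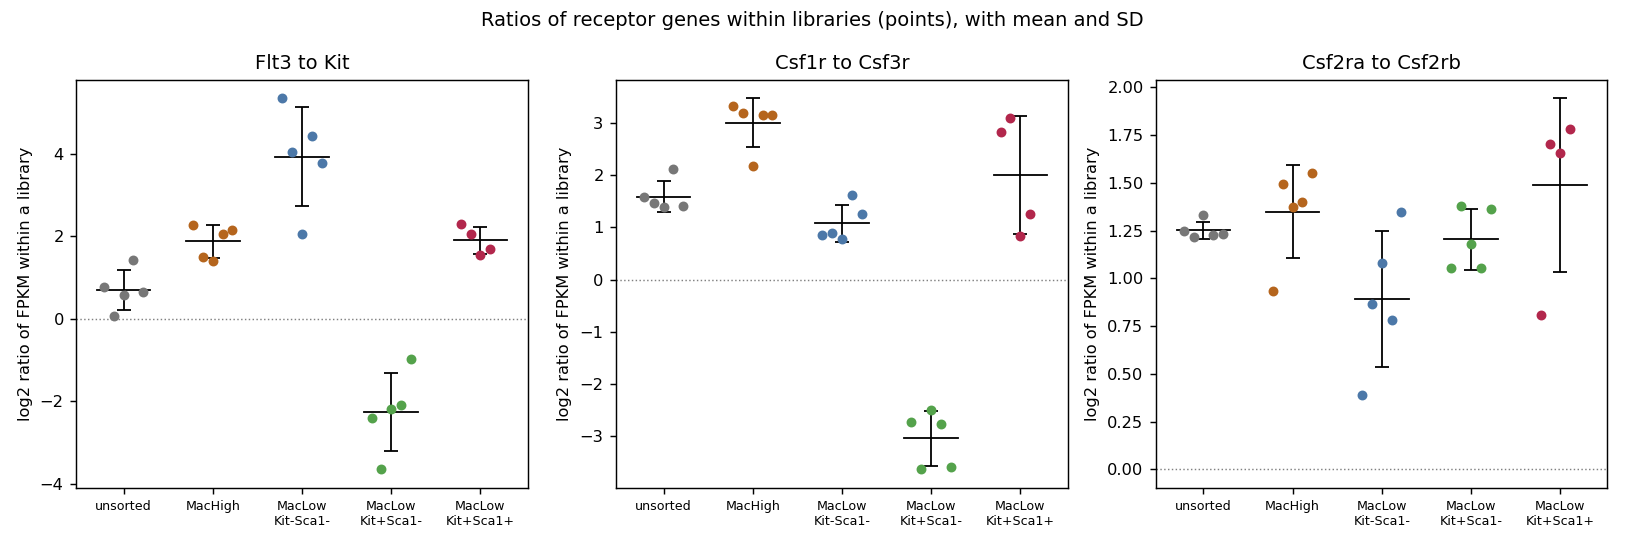
Log2 ratio of the FPKM of 2 receptor genes within each library (points), with the group mean and SD (lines). Kit+Sca1- lies below 0 for Flt3 to Kit and for Csf1r to Csf3r, where every other library lies above 0, and the groups overlap for Csf2ra to Csf2rb.

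Over the 24 libraries, log2(FPKM + 1) of Csf2rb and Csf2rb2 had a Pearson correlation of 0.82, and 0.80 within groups, that is, after the group means were taken out. These 2 genes can share reads. Csf3r and Csf2ra correlated at 0.52 over all libraries and 0.81 within groups. Flt3 and Csf3r correlated at -0.79, and Kit and Il3ra at -0.86. Within groups these were -0.52 and 0.037, so the latter was near 0 once the group means were taken out. All of these are descriptions of the same 24 libraries, which share their groups and prefixes.

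The 3 rows most like each member over the 24 libraries were picked by Pearson correlation from 9161 rows that reached a group mean of 5 FPKM. For Csf1r they were Cd68, a lysosomal protein of macrophages (0.98), Dse (0.98) and Plxnb2 (0.97). For Flt3 they were Serpina3g (0.96), Plekha5 (0.96) and Sdad1 (0.95), and for Kit Zfp395 (0.96), Clec4b2 (0.94) and Slco3a1 (0.92). Csf3r was most like Mapk3, the kinase ERK1 (0.94), Pde2a (0.94) and Cebpd, a C/EBP transcription factor (0.93). Csf2ra was most like Ralb, Cotl1 and the integrin chain Itgb2 (0.93 to 0.92), and Csf2rb like Trem1, App and the urokinase receptor Plaur (0.94 to 0.93). Csf2rb2 was most like Iqgap1, Ubl3 and Rnf111 (0.91 for each), and Il3ra like St6galnac6, Spns1 and Slc44a2 (0.92 to 0.89).

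Ligands of the members were mostly near 0 in these cells. Of 10 listed ligand genes, Flt3l and Csf1 alone passed the filter on low values. Flt3l, which encodes Flt3 ligand, was at 8.21 to 14.0 FPKM in MacHigh and 3.65 to 7.37 in Kit+Sca1+, with no overlap (-0.91 ± 0.23, limma adjusted p = 0.00236). The group with the most Flt3 thus had less Flt3l than MacHigh, and about as much as Kit+Sca1- (0.13 ± 0.23, adjusted p = 0.66). Csf1, which encodes M-CSF, was at 2.52 to 4.29 FPKM in MacHigh, 2.04 to 3.41 in Kit-Sca1-, 1.02 to 1.63 in Kit+Sca1- and 0.564 to 1.04 in Kit+Sca1+. Kitl, stem cell factor, was at 0.453 to 1.53 FPKM in Kit+Sca1+ and at 0.512 or less in every other library. The IL-3 gene was listed at 0.001 in all 24 libraries, as Nras was, so the row may hold no estimate, and Csf2 and Csf3 were at 0.57 FPKM or less in each library.

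The genes through which these receptors signal were counted from lists, in comparisons where many rows of any kind were called. In Kit+Sca1+ against Kit+Sca1- 55.2% of all rows tested were called, 26.8% higher and 28.5% lower. Of 15 JAK-STAT genes, 7 rose and 2 fell in that comparison (median 0.15 against -0.019 over all rows), and with the rescaled libraries 5 rose and 4 fell and the median turned to -0.06. The kinase genes Jak2 (59.5 against 28.4 FPKM) and Tyk2 (61.8 against 34.2) were higher, as were Mcl1, a survival factor (189 against 93.7), and the kinase Pim2 (7.61 against 2.82). Of 14 genes that damp receptor signals, 7 rose and 1 fell (median 0.64). Inpp5d, the lipid phosphatase SHIP1, was at 151 against 66.5 FPKM, Socs1, an inhibitor of JAK kinases, at 8.96 against 3.15, and Sh2b3, an adaptor that restrains JAK2, at 67.5 against 40.1. Socs2 was at 1.96 against 0.124.

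Of 22 adaptor and kinase genes tested, 5 rose and 6 fell between the same groups, where 55.2% of all rows were called, and with the rescaled libraries 3 rose and 11 fell. Fyn, a Src family kinase, was higher in Kit+Sca1+ (37.9 against 5.34 FPKM), and Shc1, an adaptor of tyrosine kinases, Fes and Vav1 were lower. Nras was listed at 0.001 in all 24 libraries, so the row says nothing of the gene or the transgene. Of 32 other cytokine and growth factor receptors tested, 18 rose and 7 fell (median 0.44), and with the rescaled libraries 15 rose and 9 fell. The 4 with the highest test statistic were Axl and Mertk, which also stand in the red pulp macrophage list, the shared IL-6 receptor chain Il6st (15.3 against 4.27 FPKM) and the IL-10 receptor Il10ra (68.2 against 6.09). Of 19 transcription factors known to act on receptor genes, 8 rose and 7 fell (median 0.20), while with quantile normalization 3 rose and 7 fell and the median was -0.15. Irf8, a factor of monocyte and dendritic cell development, was at 648 against 73.0 FPKM and Meis1 at 6.35 against 1.88, while the granulocyte factors Gfi1 (46.1 against 143) and Cebpe (81.4 against 345) were lower.

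In Kit+Sca1- against MacHigh, where Csf1r and the GM-CSF and IL-3 receptor genes were lower, 62.8% of all rows tested were called, 32.5% higher and 30.3% lower. Of 15 JAK-STAT genes 10 fell and none rose (median -0.42 against 0.032 over all rows). With the rescaled libraries 4 fell and 3 rose. Mcl1 (93.7 against 299 FPKM), Stat6, Tyk2 and Stat5b were lower. Of the 14 damping genes 12 fell and none rose, and 7 fell with the rescaled libraries, Dok2, an adaptor that dampens tyrosine kinase signals, from 181 to 24 FPKM. Of 22 adaptors and kinases 11 fell and 3 rose, while with the rescaled libraries 8 fell and 8 rose. Of the other receptors 19 of 32 fell and 5 rose. They included the IL-6 receptor Il6ra (19.6 against 103 FPKM), the IL-13 receptor Il13ra1 (2.02 against 55.3) and Il6st. Of the transcription factors 5 rose and 9 fell, with Myb (187 against 21.5) and Gfi1 (143 against 13.7) higher and Klf4 (3.16 against 53.8) and Egr2 lower.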

How the data were processed

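The authors deposited one table of FPKM values per gene for all 24 libraries. Reads were processed with TopHat2 2.0.4 and Cuffdiff against mm10, per the submitters' processing notes; how these were set is not given in the sources used here. The value 0.001 recurs in the deposited FPKM in place of 0 and may in part mark failed estimates: Nras was listed at it in all 24 libraries, and abundant neutrophil genes in whole groups. All columns were matched to samples by name, and 0 were left unused. The 8 receptor genes and all gene lists were chosen with earlier results of these data known.

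A row was tested if 4 libraries or more reached 1 FPKM. limma 3.58.1 (R 4.3.3) with a mean-variance trend was fitted to log2(FPKM + 1) of all 24 libraries, with p-values adjusted by Benjamini-Hochberg within each of 10 comparisons and called at 0.05. The fit was tested on simulated data of 1 comparison, Kit+Sca1+ against MacHigh, with independent errors and no prefixes. Of 200 changed genes 48% were recovered at a log2 change of 0.5, 93% at 1 and 98.5% at 2. False calls made up 4%, 6.53% and 1.99% of the calls in that order. Ratios within libraries were compared with exact two-sided permutation tests (Python 3.11.15), coding sequences were aligned with Biopython 1.88, and figures were drawn with matplotlib 3.10.9.

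Besides the members, the text names up to 4 called genes per signalling list and comparison with the largest moderated statistic, the ligands, and the 3 rows most correlated with each member among those with a group mean of 5 FPKM or more. Marker lists are given by their sums. Genes named from the marker lists were picked as examples after their values were seen.

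Sample names share prefixes across groups. Deviations from group means of libraries with the same prefix correlated above 0.1 in 34 of 38 pairs (mean 0.24, against -0.05 for other pairs), and in every pair for 7 of the 10 comparisons; by title number it was 22 of 46. What the prefix stands for is not given, and the block on it is an alternative.

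Alternatives were a pseudocount of 0.1, no filter, libraries rescaled to the same FPKM sum, quantile normalization, blocks on the prefix or the title number, library weights, only the groups compared, and each library left out in turn.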

Additional observations from a re-analysis of the deposited data

Results flagged for a closer look

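In 3 of the 40 combinations of a member and a group, 1 library lay apart from the rest of its group by Dixon's criterion, where chance gives about 2. Csf2ra, the GM-CSF receptor alpha chain, was at 221 FPKM in MacHigh replicate 1, below the other 4 MacHigh libraries. Csf2rb was at 60.3 FPKM in Kit+Sca1- replicate 3, where the others had 76.2 to 80.1. Csf2rb2 was at 6.51 FPKM in the same library, where the others had 11.0 to 12.3. The 2 beta chain genes were thus low in the same library. Reads can fit both genes, and how such reads were shared out is not given in the sources used here.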

How the results depend on the processing

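Over 8 alternatives, 592 of 640 member differences kept their direction and their side of the threshold, 22 lost and 17 gained a call, and 9 turned. With a library left out these were 696 of 768, with 46, 7 and 19. The block on the prefix changed the calls given beside the results and no other member call. The cause of the changes below was not tested.

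Differences that turned sign were small. For Il3ra in Kit+Sca1+ against Kit+Sca1- the value was -0.16 with rescaled libraries, -0.056 with quantile normalization and -0.016 with the prefix as a replicate block. With rescaled libraries Csf2rb in Kit+Sca1- against Kit-Sca1- was 0.018, Csf2rb2 in Kit-Sca1- against unsorted -0.034 and Csf2ra in Kit+Sca1- against unsorted 0.13. The replicate block on the prefix gave 0.084 for the last of these and 0.042 for Csf3r in Kit-Sca1- against unsorted, and quantile normalization gave -0.028 for Csf2rb in Kit+Sca1- against unsorted.

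Without the filter, with 18313 rows tested, 3 members instead of 5 were called in Kit+Sca1- against Kit-Sca1- and against unsorted. In Kit-Sca1- against unsorted 1 member was called with rescaled libraries and 5 with weights, against 2, and 3115 rows with the replicate block on the prefix and 4121 with weights, against 1692. With a pseudocount of 1 the ratio of Flt3 to Kit in Kit+Sca1- against Kit-Sca1- was -4.86 instead of -6.19.

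With 1 library left out, the differences that turned ranged from -0.11 to 0.26 (Csf3r, Kit-Sca1- against MacHigh), -0.068 to 0.13 (Il3ra, Kit+Sca1+ against Kit+Sca1-), -0.41 to 0.0020 (Csf2ra, Kit+Sca1+ against Kit-Sca1-), -0.63 to 0.054 (Flt3, Kit+Sca1- against Kit-Sca1-), -0.27 to 0.076 (Csf3r, MacHigh against unsorted), -0.22 to 0.15 (Csf3r, Kit-Sca1- against unsorted), -0.033 to 0.20 (Csf2rb2, Kit-Sca1- against unsorted) and -0.074 to 0.077 (Csf2ra, Kit+Sca1- against unsorted). Members called ranged from 3 to 5 in Kit+Sca1- against Kit-Sca1- and against unsorted, and rows called in Kit-Sca1- against unsorted from 1114 (without Kit-Sca1- replicate 4) to 2142. The ratio of Csf2ra to Csf2rb ranged from -0.57 to -0.33 (Kit-Sca1- against MacHigh), 0.18 to 0.51 (Kit+Sca1+ against Kit+Sca1-) and 0.19 to 0.42 (Kit+Sca1- against Kit-Sca1-), and passed without MacHigh replicate 1 or Kit-Sca1- replicate 5, Kit+Sca1+ replicate 1, and Kit-Sca1- replicate 5 respectively. Flt3 to Kit ranged from -0.11 to 0.13 (Kit+Sca1+ against MacHigh), 3.81 to 4.48 (Kit+Sca1+ against Kit+Sca1-) and 1.69 to 2.51 (Kit-Sca1- against MacHigh), and Csf1r to Csf3r from 4.67 to 5.42 (Kit+Sca1+ against Kit+Sca1-). Without any 1 of the Kit+Sca1- libraries the exact permutation tests of Kit+Sca1+ against Kit+Sca1- had an adjusted p of 0.0726 for both ratios, with 4 libraries against 4. The ratios of these groups did not overlap, so p before adjustment was the lowest that 4 libraries against 4 can give.

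Rescaling to the same sum moved the median difference of all rows by 0.289 in Kit+Sca1- against MacHigh, -0.193 in Kit+Sca1+ against Kit+Sca1-, 0.196 in Kit+Sca1- against Kit-Sca1-, -0.167 in MacHigh against unsorted and 0.126 in Kit+Sca1- against unsorted. The share of called rows that were higher went from 51.7% to 71.8%, 48.5% to 32.2%, 47.7% to 71.5%, 53.9% to 24.4% and 49.7% to 62.7% in that order, from 51.3% to 62.8% in Kit+Sca1+ against MacHigh, 48.3% to 58.5% in Kit-Sca1- against MacHigh, 38.9% to 9.15% in Kit-Sca1- against unsorted and 52.3% to 40.9% in Kit+Sca1+ against unsorted. FPKM without counts set no depth limit that could be computed.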
